A study of Mus musculus with 57 samples.

Results

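The libraries described here were 7 of the 57 RNA-seq libraries of a mouse study, namely those labelled as haematopoietic stem cells (HSC), chosen by that tissue label: 3 from control mice and 4 from mice given an antibody against PAPP-A. All mice were male C57BL/6 animals of 8 weeks, and the antibody or its control was given for 4 weeks before the marrow was taken. The labels name neither the antibody clone nor its dose nor what the controls received. Each library came from a pool of mice, and the number of animals in a pool is not given either. Control pools 3, 5 and 7 and treated pools 2, 4, 6 and 8 supplied the HSC libraries, all in the batch labelled A. The study asked how blocking PAPP-A acts on the populations of the marrow, and the comparison here asks which transcripts differed in HSC.

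PAPP-A (pregnancy-associated plasma protein A) is a secreted metalloprotease that cuts certain insulin-like growth factor (IGF) binding proteins, above all IGFBP4, and so frees IGF to act on its receptor nearby. The receptor IGF1R signals through PI3 kinase and AKT, which hold the FOXO factors out of the nucleus and activate mTORC1. HSC are rare, mostly quiescent cells that give rise to all blood lineages, and FOXO factors are known to help keep them quiescent.

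Values are the authors' estimated counts per gene. Levels are in CPM, counts divided by the TMM-scaled library size and brought to the usual scale of that unit, differences are log2 of treated over control with their standard error (SE), and a gene was called where the adjusted p of edgeR's quasi-likelihood test was under 0.05. Total counts were 8331468, 9023967 and 8023673 in the control libraries. The treated libraries were shallower with 1 exception, at 4023940 (pool 2), 2634243 (pool 4), 107412 (pool 6) and 8296259 (pool 8). In treated pool 6 a single count was worth 8.47 CPM, and 10997 genes had a count there, against 19271 to 22807 in the others. The part of depth in the differences below was not tested beyond the fits that left pool 6 out or thinned the libraries to 1 depth.

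The libraries carried the markers of their label. Mecom and Hlf, transcription factors needed for HSC self-renewal, were counted in all 7. Mecom stood at 127, 160 and 120 CPM in control pools 3, 5 and 7 and at 68.3, 114, 127 and 126.4 in treated pools 2, 4, 6 and 8 (log2 -0.36, SE 0.22, edgeR adjusted p = 0.684). Hlf stood at 319, 336 and 259 CPM in the control and at 136, 281, 263 and 271 in the treated libraries (log2 difference -0.38, SE 0.23, edgeR adjusted p = 0.684). Treated pool 2 was the lowest library for both genes. The markers Procr (log2 -0.04, SE 0.26), Slamf1 (0.09, SE 0.27), Fgd5 (0.08, SE 0.27) and Hoxb5 (0.51, SE 0.47) overlapped between the groups.

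Markers of other marrow cells were also counted. The 7 HSC markers summed to 904 to 1112 CPM in control and 624 to 957 CPM in treated libraries. The 4 neutrophil markers S100a8, S100a9, Ltf and Ngp summed to 355 to 1946 CPM in control libraries and to 295 to 1351 in treated ones, and exceeded the HSC sum in control pool 7 and in treated pools 4 and 8. The 4 GMP markers Mpo, Elane, Prtn3 and Ms4a3 summed to 167 to 283 CPM in control and 144 to 498 in treated libraries. The 4 markers of erythroid cells and MEP summed to 23.1 to 312 against 29.6 to 233 CPM, nearly all of the highest values from Hbb-bs. The erythroid factor Klf1 alone had 3.95, 3.97 and 3.96 CPM in control and 12, 7.89, 8.47 and 8.22 CPM in treated libraries, pool 6 with 1 count. All 4 treated libraries lay above the controls, and Klf1 did not pass the test (log2 1.23, SE 0.45, edgeR adjusted p = 0.61). The part of these cells in the differences below was not tested. The 3 megakaryocyte markers summed to 90.7 to 151 against 109 to 305 CPM. The 4 lymphoid, 3 monocyte and macrophage, 3 mast cell and basophil and 4 stromal markers each summed to under 14 CPM in every library. The stromal sum was 1.86, 2.82 and 4.09 CPM in control pools 3, 5 and 7. In treated pools 2, 4, 6 and 8 it was 13.6, 12.6, 0 and 3.68 CPM, so the groups overlapped. Of the stromal markers, Col1a1 differed by log2 2.17 (SE 0.74, edgeR adjusted p = 0.61) and Cxcl12 by 0.85 (SE 0.93). Lepr and Adipoq were not tested. The 2 plasma cell markers summed to at most 19.8 CPM and the 4 endothelial markers to at most 44.5. Of the T and NK cell markers Ncr1 had no count in any library.

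Across the 14494 genes that passed the count filter, 0 rose and 1 fell in treated HSC by edgeR (0% and 0.0069% of the genes tested). At an unadjusted p under 0.05 there were 640 genes higher (4.42%) and 516 lower (3.56%). The median log2 difference over all genes was 0 and the median SE 0.285, and 50% of the genes were positive. With DESeq2, 1 gene rose and 2 fell, and with limma voom 0 rose and 0 fell. In these bulk libraries, fewer cells that carry a transcript and less of it per cell cannot be told apart. Of the libraries left out in turn, treated pool 8 moved the counts most: without it, 102 genes rose and 47 fell. That fit kept treated pools 2, 4 and 6, the last with 107412 counts. With all 7 libraries and no filter on low counts, 136 rose and 45 fell. The cause of either change was not tested. Without the shallow pool 6 the counts were 0 and 1.

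The gene that fell was an entry named Pde2a in the deposited table. Pde2a encodes a phosphodiesterase that breaks down cAMP and cGMP and is stimulated by cGMP. The entry (ENSMUSG00000030653.17) had 198, 334 and 144 counts in control pools 3, 5 and 7, or 23, 34.9 and 19.6 CPM, and 0 counts in each of the 4 treated libraries (edgeR adjusted p = 1.09e-04). With a limit of 3 counts over the treated group, the level was at least 125-fold lower than the control mean of 25.9 ± 8.03 CPM (SD, n = 3). Treated pool 6 alone, with 25.4 CPM for 3 counts, could not have shown a difference from the controls, while pools 2, 4 and 8 could.

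The table held another entry of the same name, and its values ran the opposite way. ENSMUSG00000110195.1 had 43, 128 and 42 counts in the control and 69, 64, 2 and 295 in the treated libraries, or 5, 13.4 and 5.73 against 18.4, 25.3, 16.9 and 36.2 CPM. The groups did not overlap (log2 1.69, SE 0.38), but the entry did not pass the test (edgeR adjusted p = 0.61). Summed over both entries, Pde2a stood at 28, 48.3 and 25.4 CPM in control and at 18.4, 25.3, 16.9 and 36.2 CPM in treated libraries, so the groups overlapped. The sum differed by log2 -0.36 (SE 0.30, edgeR adjusted p = 0.753), and no gene passed the test when entries were summed by gene name.

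**Figure D1:**
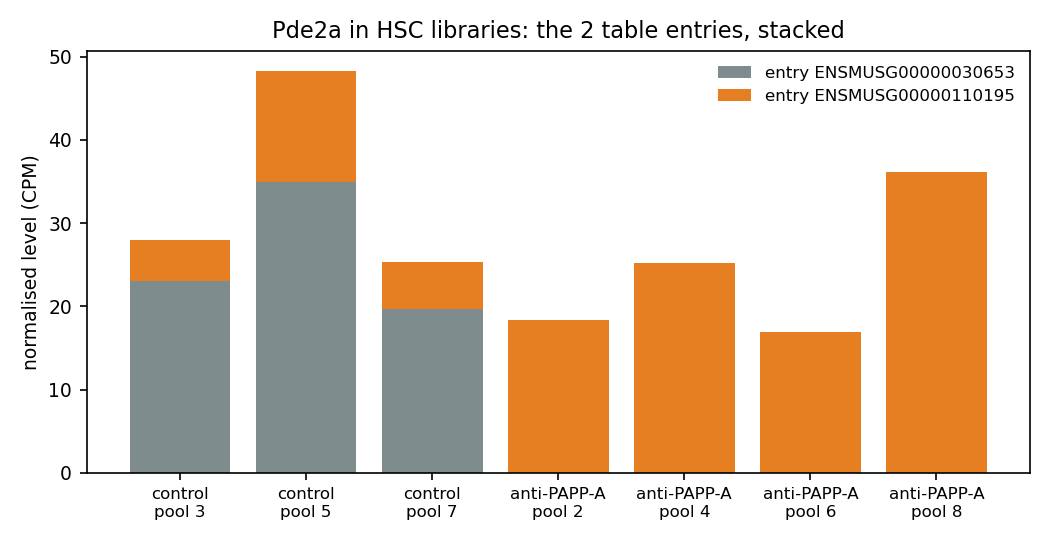
Level of Pde2a (CPM) in each of the 7 HSC libraries, with the 2 entries of that name stacked in each bar. The grey entry is seen in the 3 control libraries and in none of the 4 treated ones, while the full bars reach 25.4 to 48.3 CPM in control and 16.9 to 36.2 CPM in treated libraries.

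Both entries lie on the same strand of the same locus. In GENCODE M21 on GRCm38, ENSMUSG00000110195 is Pde2a (chr7:101421691-101512827, plus strand) and ENSMUSG00000030653 carries the name Gm45837 (chr7:101410886-101512819, plus strand), a protein-coding model with 1 transcript that also overlaps Arap1. Of the 31-base words of that transcript, 95.6% (3927 of 4109) also occur in Pde2a transcripts, and 63.5% of the Pde2a words (3927 of 6187) occur in it. A read from the shared sequence can be assigned to either entry, so the levels of the separate entries are uncertain and only their sum counts reads of the locus.

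The same switch was seen in 1 other population. In MEP the first entry had 111, 170, 45 and 282 counts in the 4 control libraries and 0 in the 4 treated ones. In CLP it was at 0 in 3 of 4 control and 2 of 4 treated libraries, in GMP in 2 of 4 and 0 of 4, and among Myeloid libraries in 1 of 6 and 3 of 6. The first entry held 72.3% to 82.2% of the Pde2a counts in the control HSC libraries and 72.5% to 89.5% in the control MEP libraries.

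Of the other 9 genes with the smallest p, none passed the test. BC025019, listed under a UCSC transcript ID, had 8.6, 3.24 and 4.91 CPM in control and 28.3, 37.9, 59.3 and 21.8 CPM in treated libraries (log2 difference 2.49, SE 0.39, edgeR adjusted p = 0.0503). All 4 treated libraries lay above the controls, pool 6 with 7 counts. By DESeq2 it passed (adjusted p = 4.4e-05). AK077348 (log2 1.97, SE 0.44) was also above the controls in all 4 treated libraries, and AK083197 had no count in any treated library and at most 3.55 CPM in control. Gm42480 (log2 3.59, SE 0.89), which overlaps the protocadherin gene Pcdh7 on the same strand, and the ribosomal protein pseudogene Rps13-ps2 (0.93, SE 0.23), which can share reads with Rps13, were higher. Lower were Fosb, described below, the zinc finger gene Zfp654 (log2 -0.79, SE 0.20) and Vps13d (-0.88, SE 0.22), a lipid transfer protein of the VPS13 family. Zfp654 had 78.3 to 79.2 CPM in control and 35.9 to 59.3 in treated libraries, and Vps13d 77.3 to 104 against 40.8 to 66.2, so neither overlapped. From Fosb to Vps13d in rank, each had an edgeR adjusted p of 0.61.

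Groups that did not overlap were counted over all genes as a background. Of the 14494 genes, 662 (4.57%) had all 4 treated libraries below all controls and 284 (1.96%) had all 4 above.

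The IGF axis itself was described first among the gene lists. Pappa, the target of the antibody, had 0, 1 and 0 counts in the control libraries and 1, 13, 0 and 0 in treated pools 2, 4, 6 and 8, so it was near or under the limit of 3 counts in all but pool 4 and was not tested. An antibody acts on the protein, so its transcript does not check the treatment. Of 26 IGF axis genes, 13 passed the count filter. Of these 0 rose and 0 fell, 2 had positive and 11 negative differences, and their median log2 was -0.21, against 0 over all genes. None reached an unadjusted p under 0.05.

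Among the ligands, Igf1 had 2.72 to 6.14 CPM in control and 0 to 5.33 in treated libraries, and Igf2 had 1.86 to 2.59 against 0 to 3.55 CPM. Of the binding proteins, Igfbp4, the classical PAPP-A substrate, was the only one tested. Igfbp4 had 209, 204 and 223 CPM in control pools 3, 5 and 7 and 344, 254, 212 and 261 CPM in treated pools 2, 4, 6 and 8 (log2 0.37, SE 0.19, edgeR adjusted p = 0.632). Treated pools 2, 4 and 8 lay above the controls and pool 6 among them. Stc1, which encodes an inhibitor of PAPP-A, was not tested, with 4, 1 and 2 counts in control and 13, 20, 0 and 0 in treated libraries.

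Of the receptors, Igf1r had 146, 154 and 148 CPM in control and 186, 243, 144 and 135 CPM in treated libraries (log2 difference 0.28, SE 0.21, edgeR adjusted p = 0.721). Treated pools 2 and 4 were above the controls and pools 6 and 8 below them. The insulin receptor Insr had 46 to 61.7 CPM in control and 30.9 to 52.9 in treated libraries (log2 difference -0.34, SE 0.23). The scavenging receptor Igf2r had 15.6 to 32.6 against 8.8 to 76.2 CPM, the highest value being 9 counts in pool 6. Downstream, the adaptor Irs2 had 19.6 to 29.9 CPM in control and 9.87 to 25.4 in treated libraries (log2 difference -0.51, SE 0.31), and the PI3 kinase regulatory subunit gene Pik3r1 differed by -0.29 (SE 0.19). The kinases Akt1 and Akt2 differed by -0.16 (SE 0.20) and -0.14 (SE 0.20), the catalytic subunit gene Pik3ca by -0.08 (SE 0.18) and the adaptor Grb10 by -0.06 (SE 0.18).

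**Figure D2:**
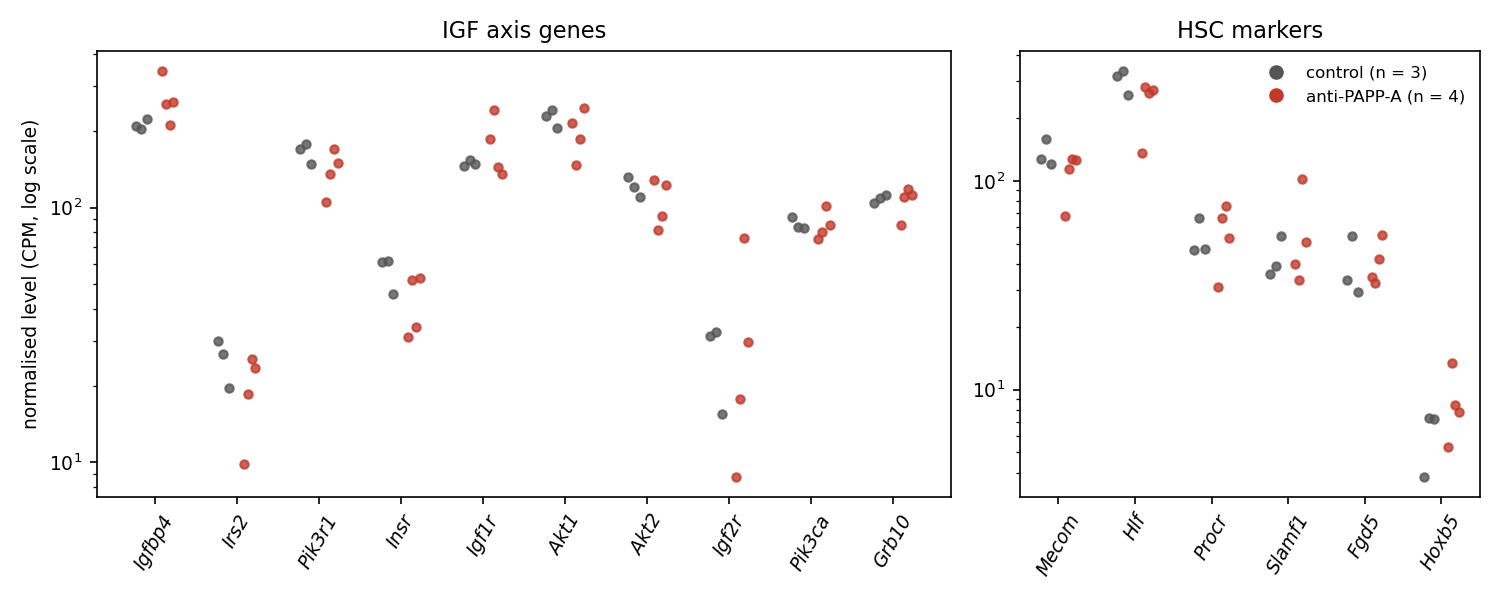
Level (CPM, log scale) of IGF axis genes with a count in all 7 libraries (left) and of HSC markers (right), 1 point per library. Control and treated points overlap for each gene shown, and treated pool 2 is the lowest library for Mecom (68.3 CPM) and Hlf (136 CPM).

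Genes that answer IGF signalling were looked at next. Of 19 tested FOXO targets 9 were positive and 10 negative (median log2 -0.02), and 0 passed the test. The list's lowest p belonged to Klf6 (log2 -0.78, SE 0.24) and Foxo3 itself (-0.77, SE 0.29). Foxo3, which encodes a factor known to preserve HSC quiescence, had 98.8, 109 and 60.7 CPM in control and 44.5, 30.8, 67.7 and 76.8 in treated libraries, which overlapped (edgeR adjusted p = 0.61). Of 17 tested mTORC1 and amino acid genes 8 were positive and 9 negative (median -0.03). Rictor, the defining subunit of mTORC2, differed by -0.71 (SE 0.25) and Ddit4, a stress-induced inhibitor of mTORC1, by -0.69 (SE 0.29).

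Most early response genes had lower values in treated HSC, and none passed the test. These genes are transcribed within minutes of growth factor, cytokine or stress signals, and many encode transcription factors or brakes on MAP kinase signalling. Of 31 tested members, 28 had a negative difference, 15 were lower at an unadjusted p under 0.05 and 0 were higher, where 3.56% of all genes were lower. Their median log2 was -0.44, against 0 over all genes, and 0 passed the test of edgeR. Of 11 tested AP-1 factors 10 were negative and 4 lower at an unadjusted p under 0.05 (median -0.47). Without control pool 5 the AP-1 median was -0.25, with 8 negative and 2 lower, and without control pool 7 it was -0.68 with 6 lower. Over all genes, 149 of 14652 were lower at that p without control pool 5 and 928 of 14743 without control pool 7.

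Fosb, an AP-1 subunit, had 1983, 2919 and 1252 CPM in control pools 3, 5 and 7 and 831, 683, 1092 and 1013 CPM in treated pools 2, 4, 6 and 8. All 4 treated libraries lay below the lowest control (log2 -1.19, SE 0.27, edgeR adjusted p = 0.61). By DESeq2 Fosb fell (adjusted p = 0.00713). The group means were 2051 ± 835 (SD, n = 3) and 905 ± 184 CPM (SD, n = 4). Fosb lies at chr7:19302696-19310051 on the minus strand (GENCODE M21, GRCm38) and overlaps no other gene.

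Jun, the partner of FOS proteins in AP-1, had 1790, 2624 and 1427 CPM in control and 959, 808, 1338 and 1137 CPM in treated libraries, again without overlap (log2 -0.89, SE 0.25, edgeR adjusted p = 0.61). Fos had 2890, 3949 and 2742 CPM against 1668, 1414, 2261 and 2309 CPM, without overlap (log2 -0.75, SE 0.25, edgeR adjusted p = 0.61). Junb (log2 -0.49, SE 0.21) had 3 of 4 treated libraries below the controls, and Jund (-0.24, SE 0.23) had 1. Batf was the tested AP-1 gene with a positive difference (log2 0.41, SE 0.28).

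Of the 31 tested members of the early response list, 5 did not overlap and were lower, against 4.57% of all genes. Dusp1, which encodes a phosphatase that switches off MAP kinases, had 768, 988 and 1028 CPM in control and 486, 444, 618 and 732 CPM in treated libraries (log2 difference -0.71, SE 0.22, edgeR adjusted p = 0.61). The RNA-decay factor Zfp36 (log2 -0.56, SE 0.22), the small GTPase Rhob (-0.62, SE 0.19), the survival factor Mcl1 (-0.50, SE 0.19) and the transcription factor Klf10 (-0.40, SE 0.19) were likewise lower in 4 of 4 treated libraries. Klf4, a Krüppel-like transcription factor, had 152, 236 and 241 CPM in control and 90.9, 101, 161 and 131 CPM in treated libraries (log2 difference -0.88, SE 0.22, edgeR adjusted p = 0.61). Pool 6 of the treated group was within the control range. Egr1, a zinc finger factor linked to HSC quiescence, had 2000, 2333 and 1343 CPM against 761, 977, 1558 and 962 CPM (log2 -0.86, SE 0.26). Here too pool 6 lay within the control range.

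Not all members were lower. Myc, the growth-promoting transcription factor, had 169 to 183 CPM in control and 190 to 236 CPM in treated libraries, and Ier3, an NF-kB responsive survival gene, had 133 to 136 against 145 to 203 CPM. Both were above the controls in all 4 treated libraries and did not pass the test (log2 0.28, SE 0.17, and 0.25, SE 0.18). All 4 treated libraries lay above the controls for 2 of the 31 members and for 1.96% of all genes. Nr4a1, a nuclear receptor of the early response, overlapped (log2 -0.40, SE 0.32). Of 20 tested NF-kB targets 11 were negative and 3 lower at an unadjusted p under 0.05, against 3.56% of all genes (median log2 -0.04). Among these the NF-kB inhibitor Tnfaip3 did not overlap, at 79.7 to 105 CPM in control and 45 to 77.6 in treated libraries (log2 difference -0.68, SE 0.21).

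**Figure D3:**
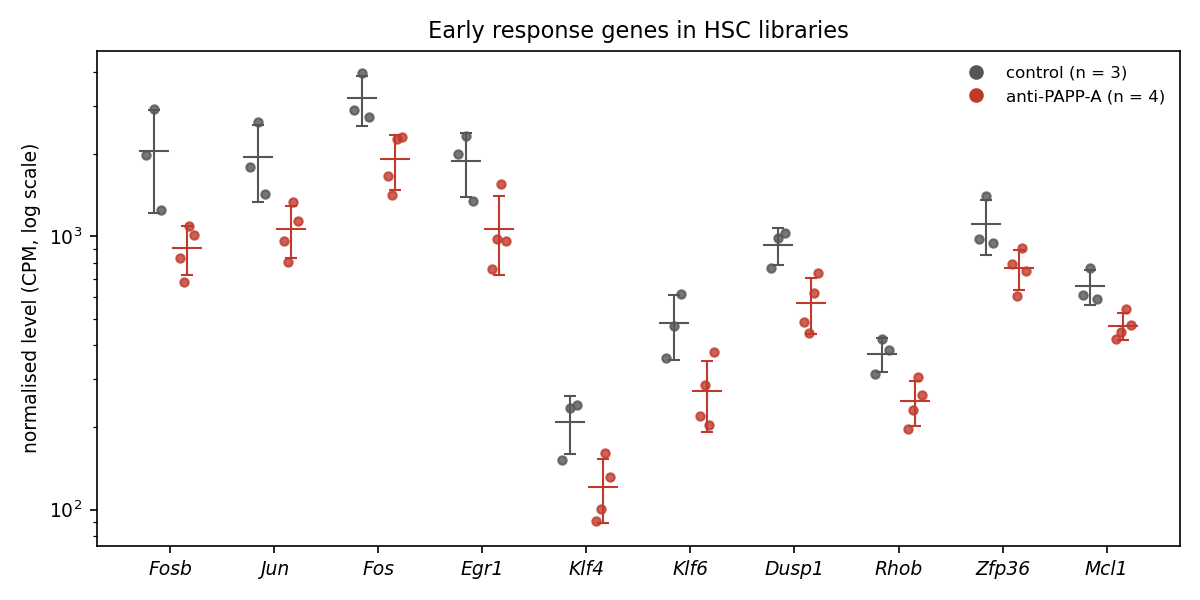
Level (CPM, log scale) of 10 genes of the early response and AP-1 lists in each HSC library, with the mean and SD of each group as bars. Fosb, Jun and Fos are of the AP-1 list. The genes were picked from the lower members after their values were seen, so their common direction follows from the choice. Myc, Ier3, Nr4a3 and Batf had positive differences and are not shown. Fosb reads 1252 to 2919 CPM in control and 683 to 1092 CPM in treated libraries.

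The summed level of the early response list was 10570, 13160 and 9505 CPM in control pools 3, 5 and 7 and 7358, 7508, 9838 and 7864 CPM in treated pools 2, 4, 6 and 8. The sum of control pool 7 lay under that of treated pool 6, and control pool 5 was the highest. Without control pool 5 the list's median was -0.31 and 5 of 31 members were lower at an unadjusted p under 0.05 (1.02% of all genes). Without treated pool 6 the median was -0.56 and 15 members were lower (3.78% of all genes). Without treated pool 8 it was -0.45 with 9 members lower (7.67% of all genes).

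Promoters of the early response genes were searched for short motifs in the 250 bases before the annotated start, taken from RefSeq (GRCm38.p6), where 24 members had 31 entries. The letters TGACGTCA (a cAMP response element) occurred in 9.68% of these entries and in 2.57% of the 12591 entries of all tested genes, counting either strand. An AP-1 site, spelled TGANTCA, was found in 6.45% of the early response entries and in 4.31% of all entries. The share with an E-box, for which the search used the letters CACGTG, was 19.4% among early response entries and 8.23% among all. For the forkhead site the letters searched were GTAAACA, which no early response entry held (0%) and 2.23% of all entries did. The GATA site was searched as AGATAA and was present in 3.23% of early response entries against 6.23% of all. In this order the early response shares stand for 3, 2, 6, 0 and 1 of 31 entries. The AP-1 factors had 12 entries. Of these, 8.33% held the cAMP response element, 0% the AP-1 site and 16.7% the E-box. The forkhead site was in 8.33% and the GATA site in 25% of the AP-1 factor entries. None of these motifs overlapped another in the Dusp1 sequence below. The promoter of Fosb is shown because it had the lowest p among the AP-1 and early response genes, and that of Dusp1 because it holds a cAMP response element and an E-box, both in capitals. They are chr7:19310046-19310295 and chr17:26508473-26508722, both on the minus strand and written 5′ to 3′.
Fosb: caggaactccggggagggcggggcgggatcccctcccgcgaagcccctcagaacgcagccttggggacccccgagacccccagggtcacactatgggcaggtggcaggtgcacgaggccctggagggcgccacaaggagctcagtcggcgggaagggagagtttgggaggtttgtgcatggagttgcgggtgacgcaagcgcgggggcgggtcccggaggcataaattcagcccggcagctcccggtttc
Dusp1: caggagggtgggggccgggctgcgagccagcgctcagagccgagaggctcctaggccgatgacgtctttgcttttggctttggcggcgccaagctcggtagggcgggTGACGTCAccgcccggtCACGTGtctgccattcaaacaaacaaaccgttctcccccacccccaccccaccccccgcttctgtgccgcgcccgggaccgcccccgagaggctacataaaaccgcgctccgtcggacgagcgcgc
The Fosb window holds none of the 5 motifs, which says only that these letters are not there.

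The early response genes were also measured in other progenitors. The HSC libraries were fitted together with 8 libraries each of CLP (common lymphoid progenitors), GMP (granulocyte-monocyte progenitors) and MEP (megakaryocyte-erythroid progenitors), 31 in all. The CLP, GMP and MEP libraries came from the same numbered pools and also from control pool 1, which had no HSC library. Of the 31 early response genes, 28 were negative in HSC, 25 in CLP, 23 in GMP and 29 in MEP, with medians of -0.49, -0.27, -0.10 and -0.35. Over all genes of that fit the medians were -0.02, 0.10, -0.02 and 0. At an unadjusted p under 0.05, 10 members were lower in HSC, 0 in CLP, 1 in GMP and 10 in MEP, against 3.69%, 1.16%, 0.32% and 0.777% of all 18141 genes.

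Fosb in MEP had 1377, 1888, 1733 and 1364 CPM in control pools 1, 3, 5 and 7 and 628, 1164, 638 and 864 CPM in treated pools 2, 4, 6 and 8, without overlap (log2 -0.95, SE 0.29). In CLP it had 827 to 1415 CPM in control and 407 to 807 CPM in treated libraries, also without overlap (log2 -0.71), and in GMP the groups overlapped (log2 -0.59). In none of the 4 populations did Fosb pass the joint test of edgeR (adjusted p = 0.692 in HSC and 1 in MEP).

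A test of the difference itself, the HSC response minus the mean response of CLP, GMP and MEP, called 0 of 18141 genes by edgeR (0%), with 737 at an unadjusted p under 0.05. With limma voom it also called 0, with 2235 at an unadjusted p under 0.05. For Fosb that difference was -0.50 (SE 0.36, edgeR adjusted p = 0.975), for Jun -0.58 (SE 0.33) and for Fos -0.22 (SE 0.26). For Igf1r it was 0.32 (SE 0.24) and for Igfbp4 0.41 (SE 0.27, edgeR adjusted p = 0.975).

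**Figure D4:**
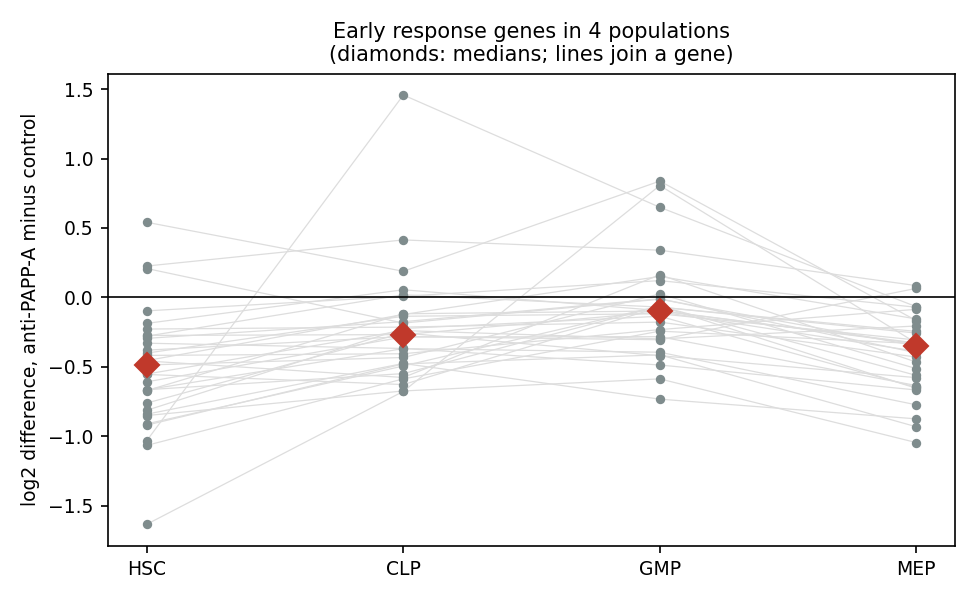
Log2 differences, treated minus control, of the 31 early response genes in HSC, CLP, GMP and MEP from 1 joint fit, with lines joining a gene and diamonds at the medians. The medians are -0.49, -0.27, -0.10 and -0.35.

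Genes of energy metabolism and translation had the highest list medians. Of 39 nuclear genes of the respiratory chain 37 were positive and 14 higher at an unadjusted p under 0.05, where 4.42% of all genes were higher (median log2 0.44). Cox6a1 and Atp5d, subunits of cytochrome oxidase and ATP synthase, differed by 0.81 (SE 0.27) and 0.62 (SE 0.21), both with an edgeR adjusted p of 0.61. All 42 tested cytosolic ribosomal protein genes were positive and 3 were higher at an unadjusted p under 0.05 (median 0.37). None passed the test in either list. The 15 mitochondrially encoded genes had 6 positive and 9 negative differences (median -0.06).

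These lists moved with single libraries. The respiratory chain genes summed to 5494, 5132 and 7563 CPM in control pools 3, 5 and 7 and to 9124, 8131, 4809 and 6996 CPM in treated pools 2, 4, 6 and 8. Pool 6 was the lowest of all 7 libraries, pools 2 and 4 were the highest, and the groups overlapped. Ribosomal protein genes summed to 53080, 50700 and 76880 CPM in control and to 86370, 93150, 55110 and 68450 CPM in treated libraries. Without control pool 7 the medians were 0.71 and 0.58, and without control pool 5 they were 0.29 and 0.25. The 14 respiratory chain genes higher at an unadjusted p under 0.05 became 2 without control pool 5, 4 without control pool 3, 3 and 4 without treated pools 2 and 4, and 29 without control pool 7. The 3 ribosomal protein genes became 0 without control pool 3 or 5 or treated pool 2, and 24 without control pool 7. In the joint fit of 31 libraries these counts were 2 and 0, and with limma voom 30 and 30. The number of all genes higher at that p moved as well. It was 331 of 14652 without control pool 5 and 368 of 14684 without control pool 3. Without control pool 7 it was 1279 of 14743. Without treated pools 2 and 4 it was 300 of 14111 and 250 of 14066. The joint fit had 627 of 18141 and limma voom 1496 of 14494.

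Transcript length moved with the differences as well. With the tested genes that have a GENCODE M21 transcript length (99.8% of those with an Ensembl ID) divided into 4 equal groups by median length, the median log2 was 0.09 for the shortest (57 to 801 bases), 0.07 and -0.03 for the middle groups and -0.14 for the longest (2487 bases and more). The respiratory chain and ribosomal protein genes had median lengths of 627 and 712 bases, and the early response genes 1847 bases, in the group whose median was -0.03. From the shortest to the longest group, 233, 141, 95 and 112 genes were higher at an unadjusted p under 0.05. Lower at that p were 73, 78, 120 and 224 genes, with 3440 or 3441 genes in each group. The part of length in these differences was not tested.

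Of 30 tested G2/M genes 23 were positive and 6 higher at an unadjusted p under 0.05 (median log2 0.23), among them the centromere histone Cenpa (0.54, SE 0.20) and the anaphase activator Cdc20 (0.49, SE 0.21). Without control pool 5 that median was -0.01 and 0 were higher, without treated pool 2 also 0, and without control pool 7 the median was 0.47 with 12 higher. Over all genes, 640 (4.42%) were higher at that p with all 7 libraries, and 331 of 14652 without control pool 5. Without treated pool 2 it was 300 of 14111 genes, and without control pool 7 it was 1279 of 14743. Of 33 S phase genes 23 were positive (median 0.08), but without control pool 5 the median was -0.08 with 18 negative. The smallest p belonged to the flap endonuclease Fen1, which had 55.8 to 82.4 CPM in control and 90 to 107 CPM in treated libraries (log2 difference 0.49, SE 0.20, edgeR adjusted p = 0.618), and to Slbp, which binds histone mRNA (0.39, SE 0.20). Among 20 quiescence brakes and D cyclins 9 were positive and 11 negative (median -0.13), with Btg2 at -0.64 (SE 0.25) and Rbl2 at -0.41 (SE 0.22). Of 22 MYC network genes 14 were positive (median 0.07), and Mycn, which acts with Myc in HSC, had 83.1 to 90.6 CPM in control and 116 to 169 CPM in treated libraries (log2 difference 0.63, SE 0.19, edgeR adjusted p = 0.61), without overlap.

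The stem cell programme showed no gene that passed the test. Of 25 stem cell transcription factors 10 were positive and 15 negative (median log2 -0.10), with Mycn and Egr1 at the smallest p. Of 23 surface and sort markers 9 were positive and 14 negative (median -0.04). The niche ligand gene Angpt1 had 859, 958 and 1007 CPM in control and 539, 581, 762 and 792 CPM in treated libraries (log2 difference -0.50, SE 0.21, edgeR adjusted p = 0.618), without overlap. The adhesion molecule Esam had 87.6 to 91.9 against 104 to 169 CPM (log2 0.44, SE 0.19, edgeR adjusted p = 0.618), without overlap. Of 22 ageing genes 12 were positive (median 0.04), with the integrin Itga6 at -0.75 (SE 0.23) and the glutathione transferase Gstm2 at 0.79 (SE 0.29).

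Of 31 chromatin and DNA methylation regulators 24 were negative (median log2 -0.19). At an unadjusted p under 0.05, 5 of them were lower, against 3.56% of all genes. Without control pool 5, 2 were lower, against 149 of all 14652 genes. Without control pool 7, 11 were lower, against 928 of all 14743 genes. Tet2, an oxidase of methylated cytosine, had 25.6 to 41 CPM in control and 15.4 to 33.9 CPM in treated libraries (log2 difference -0.85, SE 0.27), and the H3K36 methyltransferase gene Setd2 had 134.5 to 186 against 77.7 to 134 CPM (log2 -0.64, SE 0.21), the latter without overlap. For Setd2, treated pool 8 (134 CPM) lay just under control pool 7 (134.5 CPM). Of 25 cholesterol synthesis genes 19 were negative (median -0.13). Insig1, which retains the sterol sensor in the ER, differed by -0.68 (SE 0.24).

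No gene of the other signalling and stress lists passed the test. Their medians were 0.07 for 33 interferon-stimulated genes, led by Bst2 (log2 0.40, SE 0.23) and Oas1a (0.44, SE 0.25), and 0.13 for 15 MHC class II and antigen presentation genes, with Psmb8 at 0.38 (SE 0.19) and Nlrc5 at -0.41 (SE 0.24). They were 0.06 for 22 p53 targets, with the death receptor gene Tnfrsf10b at 1.23 (SE 0.44) and Gtse1 at 0.64 (SE 0.24), and 0.03 for 29 glycolysis and hypoxia genes, with Hif1a at -0.39 (SE 0.20) and no overlap. For Hif1a, treated pool 8 (73.23 CPM) lay just under control pool 5 (73.28 CPM). Of 28 heat shock genes 17 were positive (median 0.08). The inducible chaperone Hspa1a differed by -0.68 (SE 0.23) and the mitochondrial Hspe1 by 0.55 (SE 0.22). For 22 oxidative and haem response genes the median was 0.09, with the metallothionein Mt1 at 0.90 (SE 0.40).

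Receptors and niche signals were likewise without a call. Of 31 cytokine and growth factor receptors 11 were positive and 20 negative (median log2 -0.09), with Csf3r at -0.63 (SE 0.27) and Il6st at -0.46 (SE 0.25). Of 27 TGF-beta and BMP genes 16 were negative (median -0.05). Skil, a repressor of SMAD signalling, had 59.7 to 78.5 CPM in control and 8.47 to 59.2 CPM in treated libraries (log2 difference -0.79, SE 0.30), without overlap. Its lowest value was 1 count in treated pool 6, and treated pool 2 (59.2 CPM) lay just under control pool 7 (59.7 CPM). Of 27 Notch and Wnt genes 13 were positive and 14 negative, with the receptor Fzd6 at -0.98 (SE 0.31) and the Wnt effector Tcf7l2 at 0.95 (SE 0.38). Of 14 tested HOX genes 12 were positive (median 0.16), with Hoxb3 at -0.48 (SE 0.35) and Hoxa7 at 0.27 (SE 0.28), and the 25 adhesion genes had a median of -0.13.

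Lists of other lineages gave the following medians. The 25 megakaryocyte genes had -0.04, with Plek, a platelet protein kinase C substrate, at -0.75 (SE 0.25) and no overlap, and Mmrn1 at -0.50 (SE 0.21). The 22 erythroid and MEP genes had 0.05, the 21 GMP and primary granule genes 0.11, with Gfi1 at 1.17 (SE 0.43), and the 24 neutrophil maturation genes -0.29, with Padi4 at -0.55 (SE 0.24). Neutrophil genes summed to 951 to 3210 CPM in control and 817 to 2346 CPM in treated libraries. The median of the neutrophil list was 0.32 without control pool 7 and -0.75 without treated pool 8. The 14 lymphoid progenitor genes had 0.33, with Ebf1 at 3.95, 3.87 and 13.4 CPM in control and 24.5, 39.1, 0 and 6.13 CPM in treated libraries (log2 difference 1.58, SE 0.75, edgeR adjusted p = 0.64). The 4 lymphoid markers summed to 0.813 to 2.86 CPM in control libraries. In treated pools 2, 4, 6 and 8 they summed to 11.2, 2.76, 0 and 2.94 CPM. The stromal marker sums were highest in treated pools 2 and 4, at 13.6 and 12.6 CPM. Which cells carried Ebf1 was not tested. Over 18 alternative settings the lymphoid median ran from -0.03 (thinned counts, pool 6 left out) to 1.02 (joint fit). The 14 tested marrow stromal genes had a median of 0.31, with 9 positive and 5 negative. Over the same settings that median ran from -0.08 (voom) to 0.57 (no filter on low counts).

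**Figure D5:**
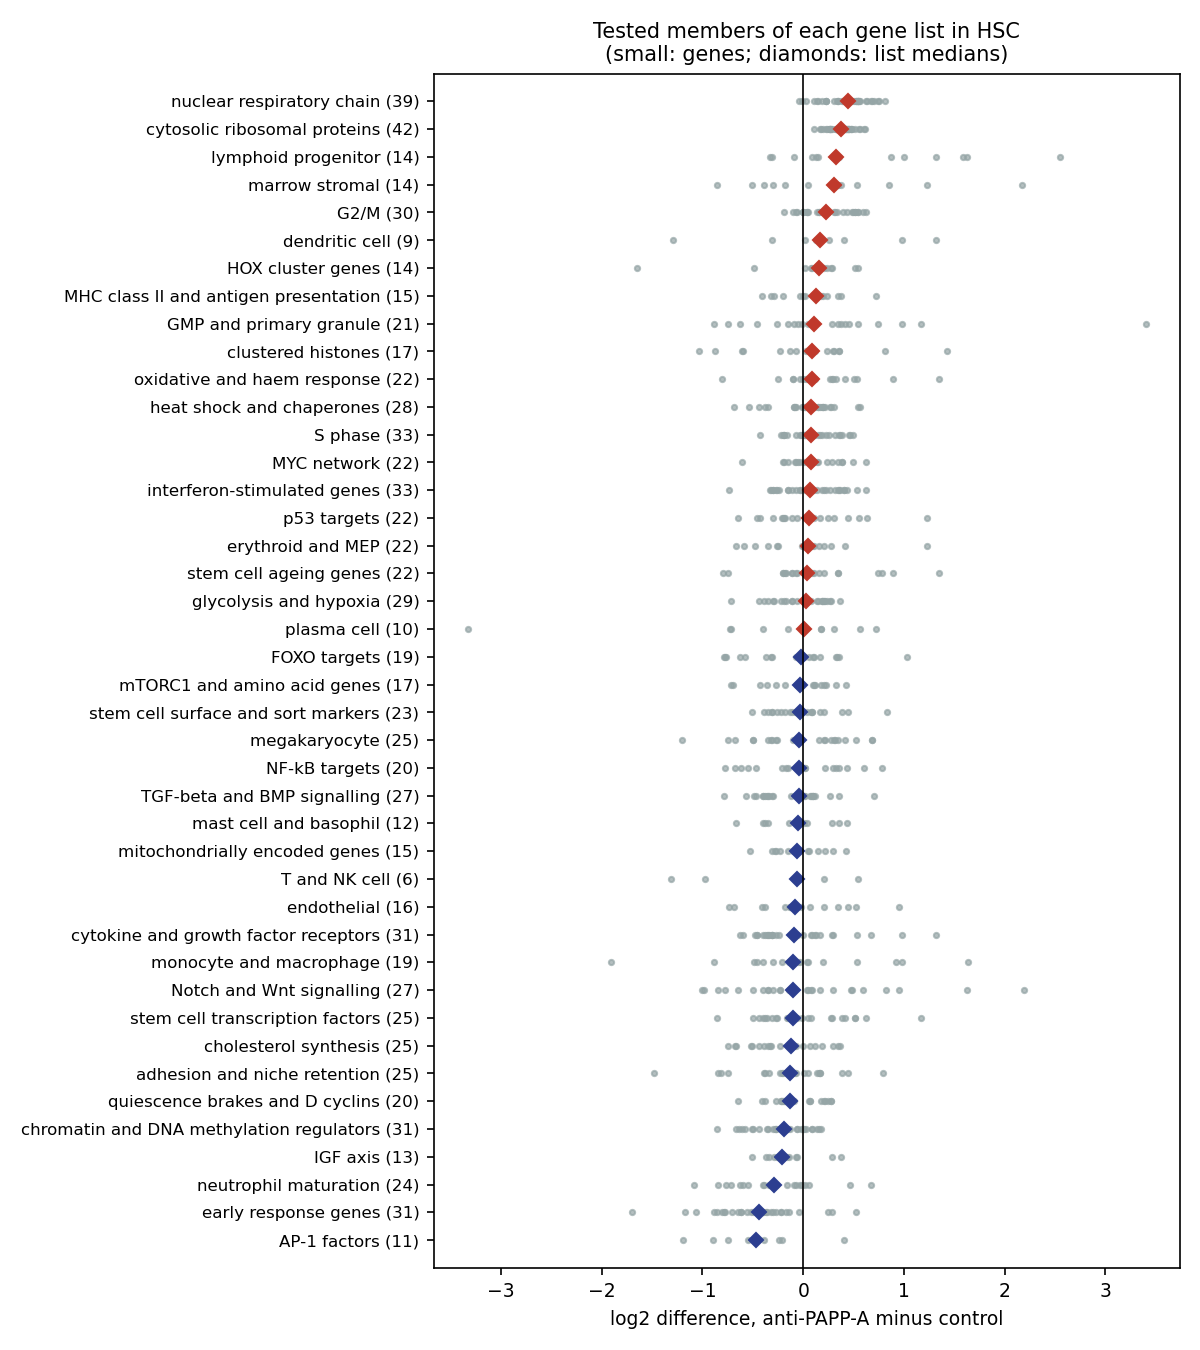
Log2 differences, treated minus control, of the tested members of 42 gene lists in HSC, sorted by the list median (diamonds), with the number tested in brackets and a line at the median of all genes. AP-1 factors (-0.47) and early response genes (-0.44) have the lowest medians, and respiratory chain (0.44) and ribosomal protein genes (0.37) the highest.

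In the 42 lists together, 0 of 827 tested members rose and 0 fell.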

How the data were processed

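RNA of marrow populations was extracted with RNeasy columns and made into strand-specific libraries (NEBNext Ultra II Directional), per the labels' protocols. The authors deposited estimated counts per gene from Salmon, and FastQC 0.11.5 and mm10 are also named, per the submitters' processing notes. The annotation release is not given in the sources used here. The deposited counts were whole numbers. The table had 7385832 lines for 56332 genes, of which 18072 stood on more than 1 line with the same values, and each gene was used once.

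Genes were filtered with filterByExpr, scaled by TMM and fitted with edgeR 4.0.16 (robust quasi-likelihood, R 4.3.3) over the 7 HSC libraries, with Benjamini-Hochberg adjustment over all genes tested. The response of HSC was compared with the mean response of CLP, GMP and MEP in 31 libraries of batch A. DESeq2 1.42.0, limma 3.58.1 (voom with quality weights), other scalings and filters, leaving out each pool, entries summed by name and thinned counts were alternatives, the last pair added after seeing the data. Scripts were tested on simulated data. Pool numbers in the labels mark the same mice across populations, and control and treated pools share none. P-values of the fit of the 7 HSC libraries measure the spread between pools. The main joint fit of 31 libraries had no pool term, so its p and SE treat libraries of the same pool as independent.

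The members and lists were chosen with earlier results of these data known. Named were, where fewer than 10 genes passed, the 10 with the smallest p, the IGF axis, the HSC markers and the 2 genes of smallest p in each list with a mean of at least 10 CPM; other genes named were chosen after their values were seen. Intervals at a count of 0 (3 counts) cover counting error only. Values of some members are not reported here.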

Additional observations from a re-analysis of the deposited data

Results flagged for a closer look

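Of the named genes, 9 had a treated library that stood apart from the other 3 by Dixon's criterion for a gap relative to the group's range. The criterion is set at the 95% level, so chance alone gives about 1 in 20 groups. Among all the named genes examined, the 9 flagged are only slightly more than that share. A flag alone therefore does not separate a library from what chance gives. Groups of 3 (the controls) were not examined.

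Treated pool 2 was low for Hlf, at 136 CPM where the next library had 262.5, and high for the erythroid factor Klf1, at 12 against 8.47 CPM, and for the niche chemokine Cxcl12, at 7.2 against 0.613 CPM. Treated pool 8 was high for the globin gene Hbb-bs, at 218 against 25.4 CPM, and for the TGF-beta receptor Tgfbr2, at 52.3 against 36.7 CPM. Treated pool 4 was high for Slbp, at 241 against 186 CPM. The shallow treated pool 6 had 0 counts of Cd79a and Sdc1, where the nearest libraries had 1.58 and 8.22 CPM and where 3 counts would be 25.4 CPM, so neither absence was detectable at this depth. It was high for Egfl7, at 102 against 78.1 CPM, from 12 counts.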

How the results depend on the processing

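The counts of genes that rose and fell were 0 and 1 by edgeR. DESeq2 gave 1 and 2, no filter on low counts gave 136 and 45, voom gave 0 that fell, the joint fit of 31 libraries gave 0 and summing entries by name gave 0. Leaving out 1 library in turn gave 0 to 102 that rose and 1 to 47 that fell, both highest without treated pool 8. The other settings gave 0 and 1. The cause was not tested. The first Pde2a entry did not pass with voom (adjusted p = 0.141), in the joint fit (adjusted p = 0.692) or summed (adjusted p = 0.753), and passed in the 15 other settings.

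Some differences that did not pass changed sign. Summing gave -0.364 for the second Pde2a entry, voom 0.011 for Igf1, DESeq2 0.005 for Procr and thinning -0.072 for Slamf1. With 1 library left out, the range was -0.249 to 0.001 for Akt2, -0.594 to 0.192 for Igf1, -0.109 to 0.047 for Grb10, -0.632 to 0.113 for Igf2r, -1.155 to 0.098 for Igf2, -0.04 to 0.28 for Slamf1, -0.231 to 0.214 for Procr, -0.184 to 0.391 for Fgd5 and -0.067 to 0.446 for Hoxa7.

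Control and treated HSC share no pool number, so that comparison has no fit with a block. In the comparison with the other progenitors, the replicate block of mouse pools gave 0 genes, with 575 at an unadjusted p under 0.05. Leaving out 1 pool gave 0 to 1 genes. The gene was AF357446, without pool 7 (log2 10.50, edgeR adjusted p = 0.00551). The depth of treated pool 6, at 107412 counts, limits what that library shows of genes under about 25.4 CPM.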
